A study of Mus musculus with 30 samples.

Results

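The Bcl2 family decides whether the outer membrane of the mitochondrion is opened and a cell enters apoptosis. Pro-survival members (Bcl2, Bcl2l1, Mcl1 and the Bcl2a1 genes) bind and restrain the other members, the effectors Bax and Bak1 form the pores, and the BH3-only members (Bcl2l11, Bbc3 and Pmaip1, whose proteins are Bim, Puma and Noxa) tip the balance towards death. In T cells, Bcl2 is known to be kept up by cytokine receptors such as the interleukin-7 receptor, Bcl2a1 is a known target of NF-kB factors such as Rel, and Bim limits the life of activated cells. The 10 genes described here were found by symbol, through their Ensembl identifiers, among 55480 named genes of the QuantSeq files and 34030 named genes of the RNA-seq files. All 10 passed the filter on low counts in both kinds of library.

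The study sorted CD4 T cells from the spleens of C57BL/6 mice aged 8 weeks and measured RNA in 30 libraries. Of these, 22 were made with QuantSeq, which reads a tag at the 3′ end of each transcript, and 8 with RNA-seq. All QuantSeq groups carry the OTII T cell receptor transgene. TFH2 cells came from IL-4BacTg x OTII mice and were sorted as CD4+CD45.2+PD1+ in the CXCR5hi, CXCR5int and CXCR5lo gates (n = 2 each). TFH cells of OTII mice, without IL-4BacTg, went through the same gates (n = 3, 2 and 3). Bcl6KO cells (Bcl6f/fCd4cre x OTII, n = 2, Cre driven in T cells generally) were sorted as CD4+hCD2+ cells, where hCD2 is human CD2. Il4KO cells (Il4-/- x OTII, n = 2) were sorted as CD4+ cells. TH2 cells of IL-4BacTg x OTII mice (n = 4) were sorted as CD4+hCD2+. RNA-seq covered TFH CXCR5hi cells of OTII mice, TH2 cells of IL-4BacTg mice and naive CD4+CD62L+CD44-CD25- cells of wild type mice (n = 2 each), and 1 library each labelled TFH2 CXCR5hi and TH2 from IL-4BacTg x OTII mice. TFH2 and TH2 cells of QuantSeq share their genotype and differ in the gate, while TFH and TH2 cells differ in genotype and gate. Cell type and gate, and for TFH cells genotype too, cannot be told apart. The labels do not say which libraries came from separate mice and number no replicates: replicate numbers here follow the order of deposit and only name libraries.

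Depth was 1834612 to 4442404 counts a library in QuantSeq and 36048137 to 107398014 in RNA-seq. All 7 CD4 T cell markers were detected in every group, and in QuantSeq Cxcr5 lay at 10.6 to 139 counts-per-million units (CPM, scaled in QuantSeq by the counts of all named genes) in TFH and TFH2 libraries and at 0 in TH2, Bcl6KO and Il4KO libraries. The 2 single RNA-seq libraries go against their labels: the library labelled TFH2 held 1.11 CPM of Cxcr5, 0.398 of Tox2 and 570.3 of Il4ra, and the library labelled TH2 held 135 CPM of Cxcr5, 149 of Tox2 and 28.5 of Il4ra. They are described apart and no test compares them with another group, though the filter, scaling and fit behind the RNA-seq tests included them. Bcl6 stood at 6.73 and 26.4 CPM in Bcl6KO libraries, against 0.39, 13.2, 1.99 and 5.95 CPM in TH2 libraries, and Il4 at 0 and 0.98 CPM in Il4KO libraries, against 0, 0, 13.3 and 0 CPM in TH2 libraries. Whether these tags lie in a deleted part was not tested, so they do not check the knockouts. Ddx3y, a Y-linked gene, was at 48.5 to 101 CPM in TFH2 libraries and at 0 in TFH libraries, while TH2 replicates 1 and 2 held 337 and 379.6 CPM of Xist and TH2 replicates 3 and 4 held 97.5 and 28.7 CPM of Ddx3y. Donor sex is thus confounded with TFH2 against TFH.

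Bcl2a1 exists in the mouse as several near-identical copies, which limits how far the counts of Bcl2a1b and Bcl2a1d can be told apart. Of all 50-base windows of the GENCODE transcripts, 57.6% of those of Bcl2a1b and 79.5% of those of Bcl2a1d occur exactly in another of the 4 Bcl2a1 transcripts. Over the last 300 bases, where QuantSeq reads begin, these shares are 74.1% and 94.8%. Of the 186 bases before the GENCODE start, 50 in Bcl2a1d and 0 in Bcl2a1a have no partner in Bcl2a1b. These 186-base stretches lie outside the transcripts and only describe the copies. They are given from RefSeq, build GRCm38.p6, 5′ to 3′ on the strand of the gene, with capitals at bases that differ from or have no partner in the stretch of Bcl2a1b.
Bcl2a1b (chr9:89199023-89199208, plus strand): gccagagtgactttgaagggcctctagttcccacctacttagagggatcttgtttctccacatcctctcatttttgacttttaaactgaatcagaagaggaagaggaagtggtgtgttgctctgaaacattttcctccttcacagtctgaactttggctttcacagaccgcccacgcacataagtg
Bcl2a1d (chr9:88731915-88732100, minus strand): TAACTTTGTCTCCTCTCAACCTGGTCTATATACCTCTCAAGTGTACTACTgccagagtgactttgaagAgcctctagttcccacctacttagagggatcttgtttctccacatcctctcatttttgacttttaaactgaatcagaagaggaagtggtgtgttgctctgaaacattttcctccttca
Bcl2a1a (chr9:88956714-88956899, plus strand): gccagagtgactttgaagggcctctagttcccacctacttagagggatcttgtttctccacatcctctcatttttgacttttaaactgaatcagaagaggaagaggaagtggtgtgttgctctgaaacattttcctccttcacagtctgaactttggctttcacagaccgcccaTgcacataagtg

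Bcl2a1a, another copy outside the 10 genes, matched Bcl2a1b at 185 of 186 bases, and Bcl2a1d matched it at 135 of 136 aligned bases and lacks 6 bases of it inside the aligned stretch, which carry no capitals, the GENCODE start of Bcl2a1d lying further upstream in the shared sequence. Reads from these genes can be split between them by the counting, so each count of Bcl2a1b and Bcl2a1d is uncertain, and the sum of the 4 copies is given beside them. The 250 bases before each RefSeq start were searched on both strands for TTCNNNGAA (the letters bound by STAT factors), the usual loose NF-kB motif and TGTTTAC (FOXO), in 14 windows of 9 members, Pmaip1 being left out. TTCNNNGAA was in 0 of these windows and in 7.02% of 32851 mouse promoter windows of the same length. The NF-kB motif, found in 45.8% of all promoter windows, was in 10 of 14 windows, from 7 of 9 members, and in neither of those of Bcl2a1b and Bcl2a1d. TGTTTAC, in 3.17% of promoter windows, was in 2 of 14, before Bcl2l11 and Bbc3, which in other cells are known FOXO targets, and the 30 bases around each match are shown with the match in capitals.
Bcl2l11 (chr2:128125800-128125829, plus strand): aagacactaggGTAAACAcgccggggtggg
Bbc3 (chr7:16310083-16310112, plus strand): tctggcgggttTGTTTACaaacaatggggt

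The match begins 227 bases before the start of Bcl2l11, where it reads on the opposite strand, and 167 bases before a start of Bbc3. A match is a description of the letters and no evidence of binding. In GENCODE M21 (GRCm38), Bcl2 lies at chr1:106538178-106714274, Bcl2l1 at chr2:152780668-152831728, Mcl1 at chr3:95658788-95663176, Bax at chr7:45461697-45466898 and Bak1 at chr17:27019810-27029009. Bcl2l11 lies at chr2:128126038-128162547, Bbc3 at chr7:16308393-16318205, Bcl2a1b at chr9:89199209-89207827 and Bcl2a1d at chr9:88723285-88731914. Pmaip1 lies on chromosome 18.

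TFH CXCR5hi cells were set against TH2 cells in QuantSeq to ask how the 2 helper fates differ. TFH cells held far fewer Bcl2 tags and fewer Mcl1 tags, and many more Bcl2a1 tags, than TH2 cells, and Pmaip1 was higher. Of the 10 members, 4 passed an adjusted p of 0.05 (2 higher, 2 lower), against 3.51% of all 14380 genes tested, 2.05% being called higher and 1.46% lower. The median log2 ratio was -0.33 for the members and 0 for all genes. All adjusted p values below come from the quasi-likelihood test of edgeR with Benjamini-Hochberg adjustment over all genes, and log2 ratios carry their standard error.

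Bcl2, the founding pro-survival protein, stood at 66.3, 22.8 and 60.0 CPM in TFH CXCR5hi libraries, against 432, 361, 288 and 340.0 CPM in TH2 libraries. The highest TFH value lay far below the lowest TH2 value. Bcl2 fell by 2.84 ± 0.39 on the log2 scale (adjusted p = 3.34e-07). In TFH2 CXCR5hi libraries it stood at 45.6 and 38.5 CPM, below every TH2 library again, and fell by 3.11 ± 0.45 (adjusted p = 6.56e-06). The TFH and TFH2 comparisons use the same TH2 libraries and are not independent. Summed levels of 5 CD8 and NK cell markers (Cd8a, Cd8b1, Ncr1, Klrb1c and Gzma) also differed. The sum was 0 to 4.08 CPM in TFH CXCR5hi and 10.5 to 25.6 CPM in TFH2 CXCR5hi libraries, against 80.9 to 912 CPM in TH2 libraries. Cd8a and Ncr1 were at 0 in each. In TH2 libraries Klrb1c was at 0 too, so the sum there came from Cd8b1 and Gzma alone. The part of these markers in the results was not tested. In a bulk library, fewer cells that express a gene and less RNA per cell cannot be told apart.

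Mcl1, a short-lived pro-survival protein, stood at 83.0, 131 and 111 CPM in TFH CXCR5hi libraries, against 272, 294, 375 and 224 CPM in TH2 libraries. The groups did not overlap, and Mcl1 fell by 1.44 ± 0.33 on the log2 scale (adjusted p = 0.00292). In TFH2 CXCR5hi libraries the values were 124 and 228 CPM, the second inside the TH2 range, and the log2 ratio of -0.77 ± 0.37 did not pass (adjusted p = 0.383). The TFH libraries of the CXCR5int and CXCR5lo gates held 206 to 244 CPM of Mcl1, a gate difference not tested within TFH cells alone. Bcl2l1, which encodes Bcl-xL, gave 0.342, 0 and 55.5 CPM in TFH CXCR5hi libraries and 19.4 and 20.5 CPM in TFH2 CXCR5hi libraries, against 26.9, 28.7, 23.5 and 21.6 CPM in TH2 libraries. Its TFH values spread from no count to above every TH2 library, and neither ratio passed (adjusted p = 1 for each).

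Bcl2a1b, which encodes the pro-survival protein A1, stood at 212, 194 and 197 CPM in TFH CXCR5hi libraries and at 285 and 451 CPM in TFH2 CXCR5hi libraries, against 25.0, 33.7, 17.2 and 20.0 CPM in TH2 libraries. Its log2 ratio was 3.06 ± 0.84 for TFH, which did not pass (adjusted p = 0.0834), and it rose by 3.90 ± 0.95 in TFH2 (adjusted p = 0.0387). Bcl2a1d, a second A1 gene, held 270.3, 273 and 112 CPM in TFH CXCR5hi and 489 and 466 CPM in TFH2 CXCR5hi libraries, against 28.9, 1.35, 0.332 and 29.2 CPM in TH2 libraries. It rose by 3.89 ± 0.94 in TFH (adjusted p = 0.0487) and by 5.00 ± 1.06 in TFH2 (adjusted p = 0.0198). TH2 replicates 2 and 3, which were nearly without Bcl2a1d, held Bcl2a1b, so the counts of the copies did not move in step from library to library. Whether the genes or the assignment of shared reads differed was not tested.

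Summed over the 4 copies, Bcl2a1 gave ratios with smaller standard errors than either gene. It averaged 496 ± 153 CPM in TFH CXCR5hi (SD, n = 3) and 1098 ± 97.0 CPM in TFH2 CXCR5hi libraries (SD, n = 2), against 45.6 ± 7.76 CPM in TH2 libraries (SD, n = 4). The sum rose by 3.40 ± 0.34 in TFH (adjusted p = 1.21e-09) and by 4.53 ± 0.38 in TFH2 (adjusted p = 3.88e-12). For Bcl2a1d alone the TFH call was kept by 3 of 13 alternatives, 1 of which was the sum. It was lost without any single TFH CXCR5hi library and without TH2 replicate 1, 2 or 4 (adjusted p up to 0.127). In TFH2 cells the Bcl2a1b call held in 6 of 12 alternatives, 1 of which was the sum. It was lost without any single TFH2 CXCR5hi or TH2 library (adjusted p up to 0.104). The Bcl2a1d call there held in 9 of 12, 1 of which was again the sum. It was lost without either TFH2 CXCR5hi library and on the compared groups alone (adjusted p up to 0.29). For TFH cells Bcl2a1b was called by DESeq2 (adjusted p = 0.0042) and on the compared groups alone (adjusted p = 0.000292). With TH2 libraries of the same donor sex only, the Bcl2a1d call was lost for TFH cells (adjusted p = 0.0799).

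Among the BH3-only genes, Pmaip1, which encodes Noxa, the partner of Mcl1 and A1, held 50.9, 47.2 and 15.1 CPM in TFH CXCR5hi and 51.3 and 34.8 CPM in TFH2 CXCR5hi libraries, against 0, 0, 1.33 and 0 CPM in TH2 libraries. In TH2 cells it was thus seen as 4 counts in replicate 3 alone, and 0 counts allow up to 1.17, 1.01 and 1.62 CPM in the others, for counting error only. Pmaip1 rose by a fitted 6.54 ± 1.498 in TFH (adjusted p = 0.00322) and 6.71 ± 1.64 in TFH2 (adjusted p = 0.00408), sizes that rest on those 4 counts. Without TH2 replicate 3 the fitted ratios were 9.83 and 10.02, and no upper size can be given. Fitted on the compared groups alone, the Pmaip1 call was lost for TFH (adjusted p = 0.0677) and for TFH2 (adjusted p = 0.122). With TH2 libraries of the same donor sex it was lost for TFH2 (adjusted p = 0.0614).

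Bbc3, the p53 target Puma, gave 46.8, 14.9 and 58.3 CPM in TFH CXCR5hi and 46.4 and 61.6 CPM in TFH2 CXCR5hi libraries, against 124, 149, 142 and 312 CPM in TH2 libraries. The ranges lay apart, yet the log2 ratios of -2.18 ± 0.95 and -1.78 ± 1.07 did not pass (adjusted p = 0.332 and 0.565). Fitted on the compared groups alone, both passed (adjusted p = 0.0175 and 0.043), and without the filter on low counts the TFH ratio did (adjusted p = 0.0106). Bcl2l11, which encodes Bim, gave 45.1, 0.34 and 0 CPM in TFH CXCR5hi and 15.3 and 46.9 CPM in TFH2 CXCR5hi libraries, against 125, 38.8, 131 and 60.0 CPM in TH2 libraries. TFH replicate 1 overlapped with TH2 and the other two were all but empty, and the ratio of -2.55 ± 1.12 did not pass (adjusted p = 0.336). Without TFH CXCR5hi replicate 1 it was called (-8.89, adjusted p = 2.04e-08), as it was with all libraries and no filter on low counts (-2.57, adjusted p = 0.0193).

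The effectors gave no call. Bax held 5.12, 10.9 and 17.1 CPM in TFH CXCR5hi and 30.3 and 4.76 CPM in TFH2 CXCR5hi libraries, against 5.85, 2.699, 16.6 and 26.5 CPM in TH2 libraries. Bak1 held 47.1, 22.1 and 35.5 CPM in TFH CXCR5hi and 23.0 and 45.1 CPM in TFH2 CXCR5hi libraries, against 40.9, 40.1, 28.5 and 15.1 CPM in TH2 libraries. Every pair of ranges overlapped, with standard errors of 0.96 to 1.87 on the log2 scale. In the TFH2 comparison 4 of 10 members passed in all (3 higher, 1 lower), against 2.94% of all genes, 1.70% higher and 1.24% lower.

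**Figure D1:**
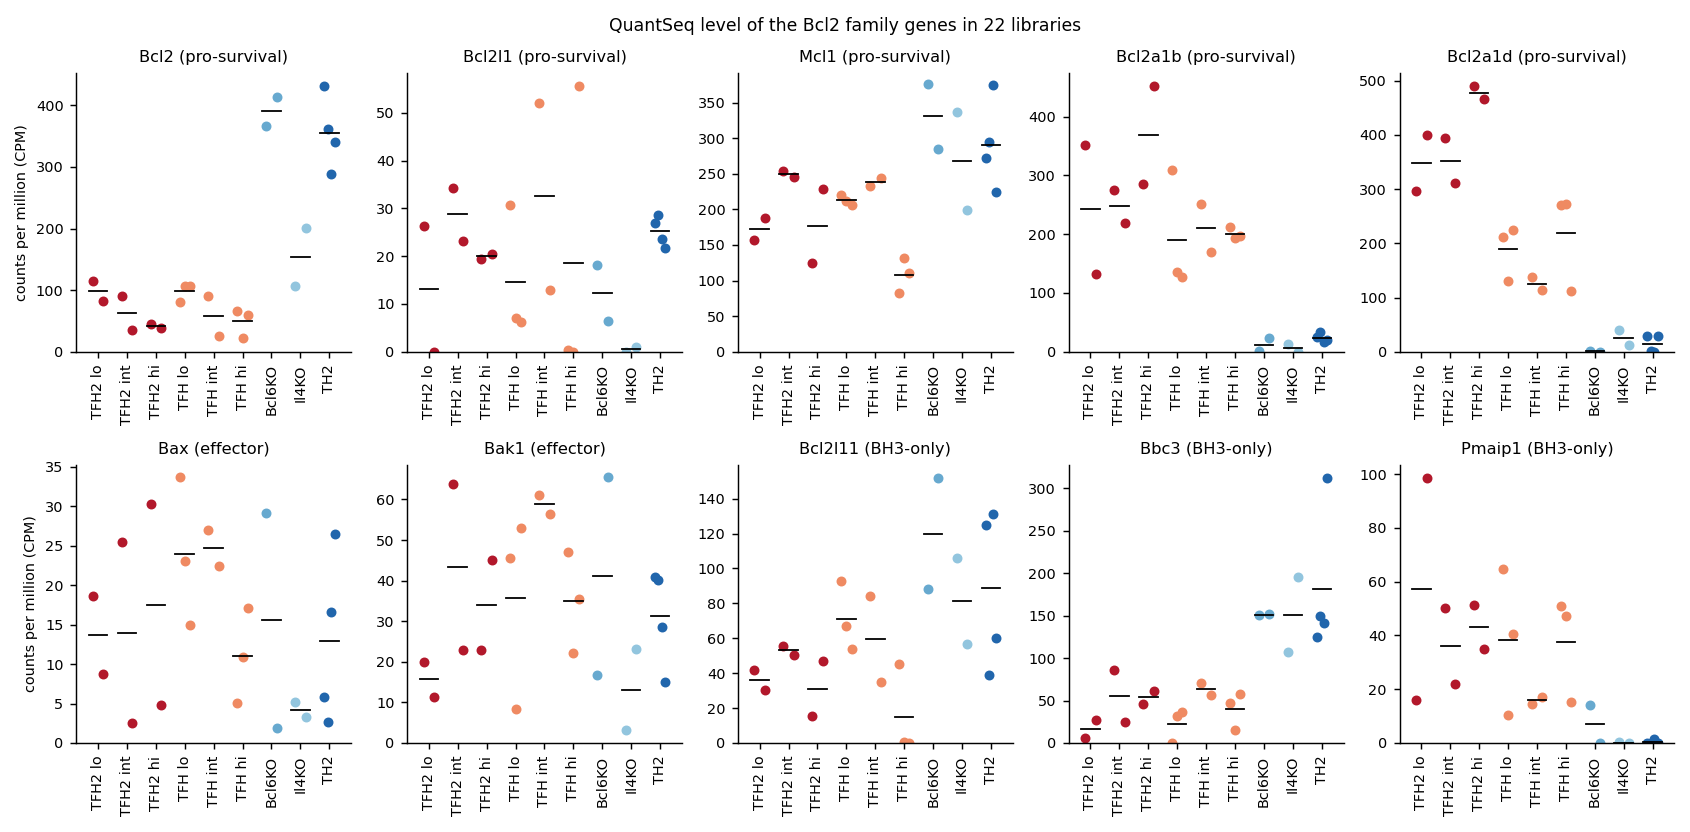
QuantSeq level in counts-per-million units, CPM (vertical axes, 1 panel a gene) of the 10 Bcl2 family genes in 9 groups. Each point is a library and each line the mean of its group. Bcl2 lies at 22.8 to 116 CPM in the 14 TFH and TFH2 libraries and at 288 to 432 CPM in TH2 libraries, while Bcl2a1b lies at 126 to 451 CPM in TFH and TFH2 libraries and at 17.2 to 33.7 CPM in TH2 libraries.

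Within a library, QuantSeq tags were compared between genes on the premise that each transcript gives 1 tag. Bcl2a1b and Bcl2a1d together made up 45.0 to 80.3% of the tags of the 5 pro-survival members in the 14 TFH and TFH2 libraries (median 63.7%), against 2.50 to 7.75% in TH2 libraries. Bcl2 made up 3.19 to 18.0% there (median 9.92%), against 40.9 to 55.0% in TH2. Mcl1 made up 12.9 to 43.0% (median 23.8%), against 34.7 to 53.2% in TH2. The total over the 5 genes was 803 to 1205 CPM in the 6 TFH2 libraries, all above the 635 to 784 CPM of TH2 libraries. In the 8 TFH libraries it was 536 to 854 CPM, which overlaps with TH2. The BH3-only total was 62.5 to 192 CPM in TFH and TFH2 libraries, against 188 to 372 CPM in TH2 libraries, and Pmaip1 gave 8.59 to 75.5% of it, against at most 0.484% in TH2. These shares are descriptions and were not tested, and they hold for the QuantSeq scale alone. TH2 libraries averaged 355 CPM of Bcl2, 291 of Mcl1 and 12.9 of Bax in QuantSeq. RNA-seq TH2 cells, from mice without OTII, averaged 33.0, 122 and 166 CPM per kilobase of transcript.

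**Figure D2:**
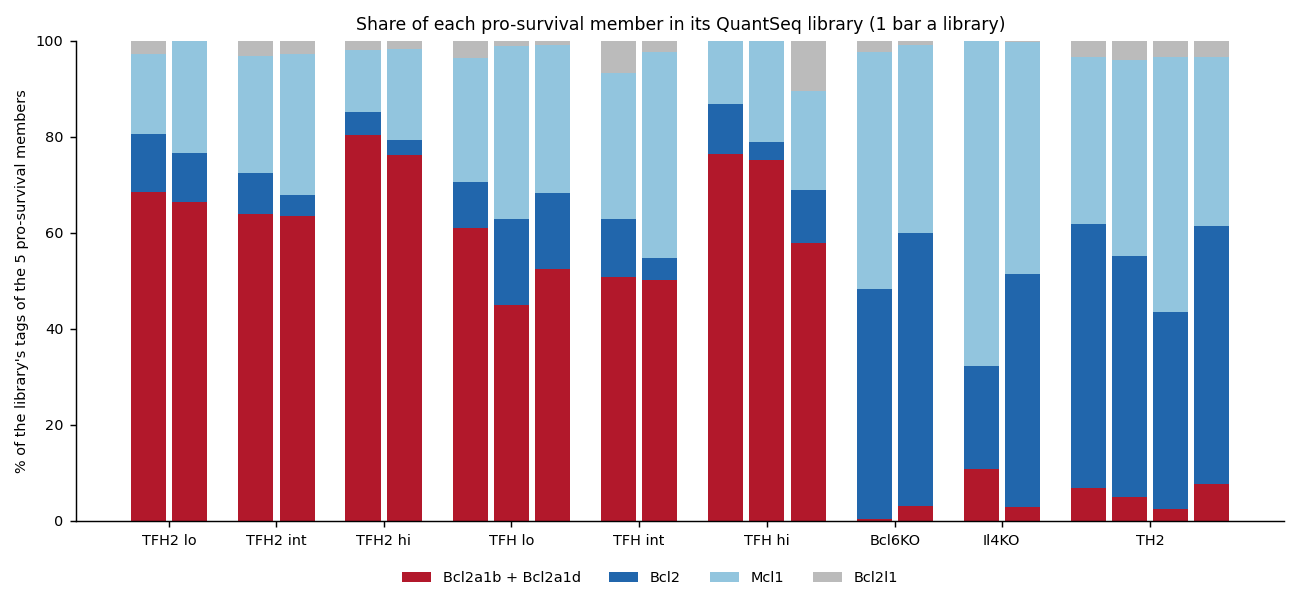
Share of Bcl2a1b with Bcl2a1d, Bcl2, Mcl1 and Bcl2l1 in the tags of the 5 pro-survival members (vertical axis, %), 1 bar for each of 22 QuantSeq libraries, grouped by cell type and gate. Bcl2a1b with Bcl2a1d reach at least 45.0% in every TFH and TFH2 bar and at most 10.8% in the Bcl6KO, Il4KO and TH2 bars.

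TFH2 cells were compared with TFH cells over the 3 gates, which asks what goes with IL-4BacTg within the TFH gate. No member passed (0 of 10, against 0.647% of all genes, 0.327% higher and 0.32% lower), 0 had an unadjusted p under 0.05, and DESeq2 called 0 as well. Bcl2a1d was the nearest. In TFH2 libraries it held 297 and 400.1 CPM in CXCR5lo, 394 and 311 CPM in CXCR5int and 489 and 466 CPM in CXCR5hi. In TFH libraries it held 211, 130.5 and 225 CPM in CXCR5lo, 138 and 114 CPM in CXCR5int and 270.3, 273 and 112 CPM in CXCR5hi. Every TFH2 library lay above every TFH library, but the log2 ratio of 1.12 ± 0.65 did not pass (adjusted p = 0.701). Fitted on the TFH and TFH2 groups alone it passed (1.12 ± 0.22, adjusted p = 0.000522), and the sum of the 4 copies passed narrowly (0.92 ± 0.24, adjusted p = 0.0496). Bcl2a1b ranged from 132 to 451 CPM in TFH2 and from 126 to 309.5 CPM in TFH libraries, which overlap (0.44 ± 0.59, adjusted p = 1.00).

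Myeloid cells are known to express Bcl2a1 too, and their markers moved with the TFH2 label. The summed level of 9 myeloid markers was 153 to 623 CPM in TFH2 libraries, with all 9 detected, against 50.6 to 119 CPM in TFH libraries, with Itgam and S100a8 at 0. In TH2 libraries it was 39.5 to 93.5 CPM. The sum of 5 erythroid markers was 424 to 1636 CPM in TFH2 libraries, against 40.0 to 343 CPM in TFH and 0 to 39.4 CPM in TH2 libraries, and that of 8 B cell markers 288 to 979, 162 to 284 and 60.5 to 147 CPM, with Ms4a1 at 0 in each. Within the myeloid list, Csf1r stood at 25.1 to 41.7 CPM in TFH CXCR5hi and 253 to 412 CPM in TFH2 CXCR5hi libraries, against 0 to 0.39 CPM in TH2 libraries. Of 6 myeloid markers tested, 1 passed as higher in TFH CXCR5hi (median log2 ratio 5.00) and 2 in TFH2 CXCR5hi (median 7.99). Their part in the Bcl2a1 values was not tested. Bcl2, Mcl1, Bbc3, Bcl2l11, Bcl2l1, Bax, Bak1 and Pmaip1 had TFH2 over TFH log2 ratios of -0.59 to 0.60, with standard errors of 0.23 to 1.17, so that only for Bcl2 and Mcl1 (SE 0.28 and 0.23) is the interval narrow.

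The CXCR5hi gate was set against the CXCR5lo gate over both genotypes, and no member passed (0 of 10, against 0.403% of all genes, 0.111% higher and 0.292% lower). DESeq2 called 0 as well, and 1 member, Bcl2, had an unadjusted p under 0.05. Bcl2 held 45.6, 38.5, 66.3, 22.8 and 60.0 CPM in the 5 CXCR5hi libraries, against 116, 82.9, 81.4, 106 and 107 CPM in the 5 CXCR5lo libraries. Those ranges lie apart, and CXCR5int libraries spanned them with 90.2, 35.6, 91.0 and 26.2 CPM. The log2 ratio was -1.09 ± 0.33 (adjusted p = 0.194). The other members had log2 ratios of -1.21 to 1.29. Whether the gate difference itself differed between TFH2 and TFH cells was tested as an interaction, and no member passed (0 of 10, against 0.0139% of all genes; 0 with an unadjusted p under 0.05, and 0 by DESeq2). Without TFH CXCR5hi replicate 1, the library that held Bcl2l11, this gene passed in the gate comparison (-4.37, adjusted p = 1.93e-05) and in the interaction (8.38, adjusted p = 0.000446).

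The knockout cells were compared with the same TH2 libraries to describe these genes in cells without Bcl6 or Il4. The genotype labels of both knockouts do not name IL-4BacTg, which TH2 cells carry, so knockout and transgene cannot be told apart. Bcl6KO cells were sorted as hCD2+ although their genotype label names no source of hCD2. In Bcl6KO cells no member passed (0 of 10, against 0.0209% of all genes, 0.0139% higher and 0.00695% lower, which is 3 genes), and 2 had an unadjusted p under 0.05. Bcl2 held 366 and 414 CPM in Bcl6KO libraries, against 288 to 432 CPM in TH2 libraries (0.10 ± 0.44). Mcl1 held 377 and 285 CPM, against 224 to 375 CPM in TH2 (0.15 ± 0.37), and Bbc3 151 and 151 CPM, against 124 to 312 CPM. Pmaip1 was at 14.1 CPM (44 counts) in Bcl6KO replicate 1 and at 0 in replicate 2, against 4 counts over the 4 TH2 libraries. Bcl2a1d had 6 and 0 counts in Bcl6KO libraries, against 74, 4, 1 and 54 counts in TH2 libraries. Bcl6KO replicate 1 held 166 counts of Bcl2a1a, and the sum of the 4 copies was 56.7 and 22.5 CPM in Bcl6KO libraries, against 35.8 to 53.8 CPM in TH2 libraries (-0.24 ± 0.39, adjusted p = 1).

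In Il4KO cells no member passed either (0 of 10, against 0.0695% of all genes, 0.00695% higher and 0.0626% lower), and 2 had an unadjusted p under 0.05. Bcl2 held 107 and 201 CPM in Il4KO libraries, both below the 288 to 432 CPM of TH2 libraries. The first lies inside the 22.8 to 116 CPM of TFH and TFH2 libraries and the second above it. Its log2 ratio against TH2 was -1.14 ± 0.44 (adjusted p = 0.921). Bcl2l1 had 0 and 3 counts in Il4KO libraries, against 69, 85, 71 and 40 counts in TH2 libraries (adjusted p = 0.921). Mcl1 held 337 and 199 CPM and Bbc3 107 and 195 CPM, within or near the TH2 ranges. The sum of the Bcl2a1 copies was 53.7 and 11.8 CPM in Il4KO libraries, against 35.8 to 53.8 CPM in TH2 libraries (-0.42 ± 0.39, adjusted p = 1). DESeq2 called 0 members in both knockout comparisons. With 2 libraries a group and standard errors of 0.37 to 2.29, changes of the size seen in TFH cells could be missed for most members. Il4KO cells also differ from TH2 cells in the gate, and gate and genotype cannot be told apart.

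RNA-seq, which counts reads along whole transcripts at greater depth, gave a second view of TFH and TH2 cells, from IL-4BacTg mice without OTII on the TH2 side. Of all 17013 genes tested, 61.8% passed between TFH and TH2 cells (30.8% higher, 31.0% lower). Against that background 9 of 10 members (3 higher, 6 lower) is no distinctive count, and the sizes matter more than the calls. The median log2 ratio was -0.41 for the members and -0.01 for all genes. RNA-seq CPM are scaled by the counts of the highest-count transcripts alone, which hold 33.1 to 35.4% of a library, so levels depend on that choice: with transcripts summed over each gene, Bcl2 averaged 16.7 CPM in TFH cells, against 97.5 CPM in TH2 cells.

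Bcl2 again stood far lower in TFH cells, at 42.9 and 42.2 CPM, against 233 and 242 CPM in TH2 cells, and fell by 2.52 ± 0.07 (adjusted p = 1.63e-10). Bcl2a1b held 169 and 174 CPM in TFH cells, against 9.56 and 7.77 CPM in TH2 cells, and rose by 4.28 ± 0.10 (adjusted p = 3.54e-11). Bcl2a1d held 128 and 133 CPM, against 7.46 and 6.21 CPM, and rose by 4.22 ± 0.11 (adjusted p = 4.66e-11). The myeloid marker sum was 47.2 to 51.5 CPM in TFH cells, against 176 to 180 CPM in TH2 cells, with 3 of 9 markers called higher and 2 lower (median log2 ratio 0.33). Of 8 B cell markers 6 were called higher and 1 lower (median 4.49). Their part in the result was not tested. The 3 abundant copies kept near-constant shares of the Bcl2a1 counts in all 8 RNA-seq libraries: 41.4 to 50.1% Bcl2a1b, 28.6 to 34.3% Bcl2a1d and 20.8 to 24.3% Bcl2a1a. In the 14 TFH and TFH2 QuantSeq libraries the share of Bcl2a1b ran from 18.6 to 60.8%.

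The remaining RNA-seq differences were smaller. Mcl1 fell by 0.42 ± 0.07 (318 and 322 CPM in TFH cells, against 415 and 421 CPM in TH2 cells, adjusted p = 0.000372) and Bcl2l1 by 0.40 ± 0.10 (24.4 and 23.9 CPM, against 30.3 and 31.9 CPM in TH2 cells, adjusted p = 0.00521). Both effectors fell, Bax by 0.62 ± 0.08 (99.4 and 92.5 CPM in TFH cells, against 139 and 149 CPM in TH2 cells) and Bak1 by 0.48 ± 0.07 (81.4 and 83.1 CPM, against 106 and 118 CPM in TH2 cells). Bbc3 fell by 0.79 ± 0.11 (19.4 and 18.4 CPM in TFH cells, against 28.0 and 35.9 CPM in TH2 cells).

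For 2 BH3-only genes the kits parted. Bcl2l11 rose by 0.94 ± 0.09 in RNA-seq, at 31.998 and 28.8 CPM in TFH cells, against 15.0 and 16.0 CPM in TH2 cells (adjusted p = 3.21e-06), while its QuantSeq ratio was negative and did not pass. All 8 of its transcripts in the files had a positive TFH over TH2 log2 ratio, from 0.12 to 1.00. Transcripts of the same gene may share reads, so these ratios are not independent of each other. Pmaip1 stood at 26.9 and 29.3 CPM in TFH cells, against 28.0 and 24.8 CPM in TH2 cells, overlapping ranges with a log2 ratio of 0.05 ± 0.10 (adjusted p = 0.712), while QuantSeq TH2 libraries held 4 counts of it in all. The kits differ in the TH2 mice and in where reads fall on a transcript, and no test was made between them. Whether the Pmaip1 and Bcl2l11 tags of QuantSeq fall at annotated ends was not tested.

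**Figure D3:**
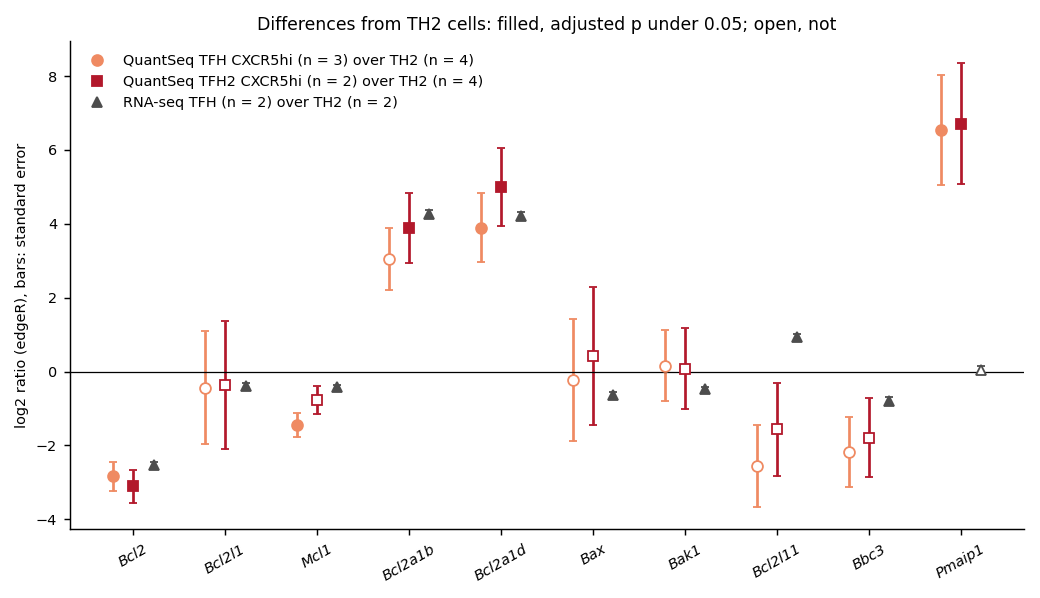
Log2 ratios over TH2 cells (vertical axis; bars, standard error) of the 10 genes for TFH CXCR5hi and TFH2 CXCR5hi cells in QuantSeq and TFH cells in RNA-seq. Filled symbols passed an adjusted p of 0.05. Bcl2 is negative in all 3 (-2.84, -3.11 and -2.52) and the Bcl2a1 genes are positive in all 3, while Bcl2l11 and Pmaip1 differ between the kits.

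Naive cells served as a reference. They came from wild type mice, TH2 cells from IL-4BacTg mice and TFH cells from OTII mice. Cell type, gate and genotype cannot be told apart in these comparisons. Against naive cells, 8 of 10 members passed in TH2 cells (6 higher, 2 lower, against 65.8% of all genes called, 33.9% higher and 31.9% lower) and all 10 in TFH cells (6 higher, 4 lower, against 57.2% called, 29.6% higher and 27.6% lower). Bcl2 was at 233 and 242 CPM in TH2 cells, against 230.5 and 221 CPM in naive cells, a log2 ratio of 0.09 ± 0.07 that did not pass (adjusted p = 0.278). In TFH cells it fell by 2.43 ± 0.07 relative to naive cells (adjusted p = 3.86e-10). Bcl2a1b rose by 4.78 ± 0.10 in TFH cells and by 0.50 ± 0.12 in TH2 cells, against 6.01 and 6.29 CPM in naive cells.

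Both helper types held more Pmaip1 than naive cells. The naive libraries had 2.11 and 1.74 CPM, and Pmaip1 rose by 3.80 ± 0.14 in TH2 cells (adjusted p = 6.27e-10) and by 3.85 ± 0.14 in TFH cells (adjusted p = 9.29e-10). Bbc3 went the other way: it stood at 28.0 and 35.9 CPM in TH2 and 19.4 and 18.4 CPM in TFH cells, against 64.3 and 65.6 CPM in naive cells, and fell by 1.01 ± 0.10 in TH2 cells and by 1.80 ± 0.10 in TFH cells. Bcl2l11 fell in both as well, by 1.78 ± 0.09 in TH2 cells and by 0.84 ± 0.08 in TFH cells, against 53.7 and 54.1 CPM in naive cells. Bax rose by 1.10 ± 0.08 in TH2 cells and 0.48 ± 0.08 in TFH cells, and Bak1 by 1.43 ± 0.07 and 0.95 ± 0.07. Mcl1 had a log2 ratio of -0.06 ± 0.07 in TH2 cells (adjusted p = 0.523) and fell by 0.48 ± 0.07 in TFH cells. The 2 comparisons share the naive libraries.

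Per kilobase of transcript, the scale on which RNA-seq levels of different genes can be compared, Bcl2a1b led among the members in TFH cells at 210 ± 4.11 CPM per kilobase, followed by Bcl2a1d at 152 ± 3.99, Bax at 111 ± 5.61 and Mcl1 at 93.5 ± 0.895 (SD, n = 2 each). Bcl2 stood at 5.92 ± 0.0669 there. In TH2 cells Bax led at 166 ± 8.24 CPM per kilobase, followed by Mcl1 at 122 ± 1.11, Bak1 at 46.9 ± 3.54 and Bcl2 at 33.0 ± 0.852, with Bcl2a1b at 10.6 ± 1.54. In naive cells Mcl1 led at 128 ± 0.653, followed by Bax at 78.4 ± 3.52 and Bbc3 at 35.8 ± 0.52. On this RNA-seq scale the leading pro-survival transcript was thus a Bcl2a1 copy in TFH cells and Mcl1 in TH2 and naive cells. How reads shared between the Bcl2a1 copies were counted is not given, so the level of a single copy may include reads of the others. In QuantSeq TH2 libraries Bcl2 averaged more than Mcl1 (355 against 291 CPM), though Mcl1 led in replicate 3.

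**Figure D4:**
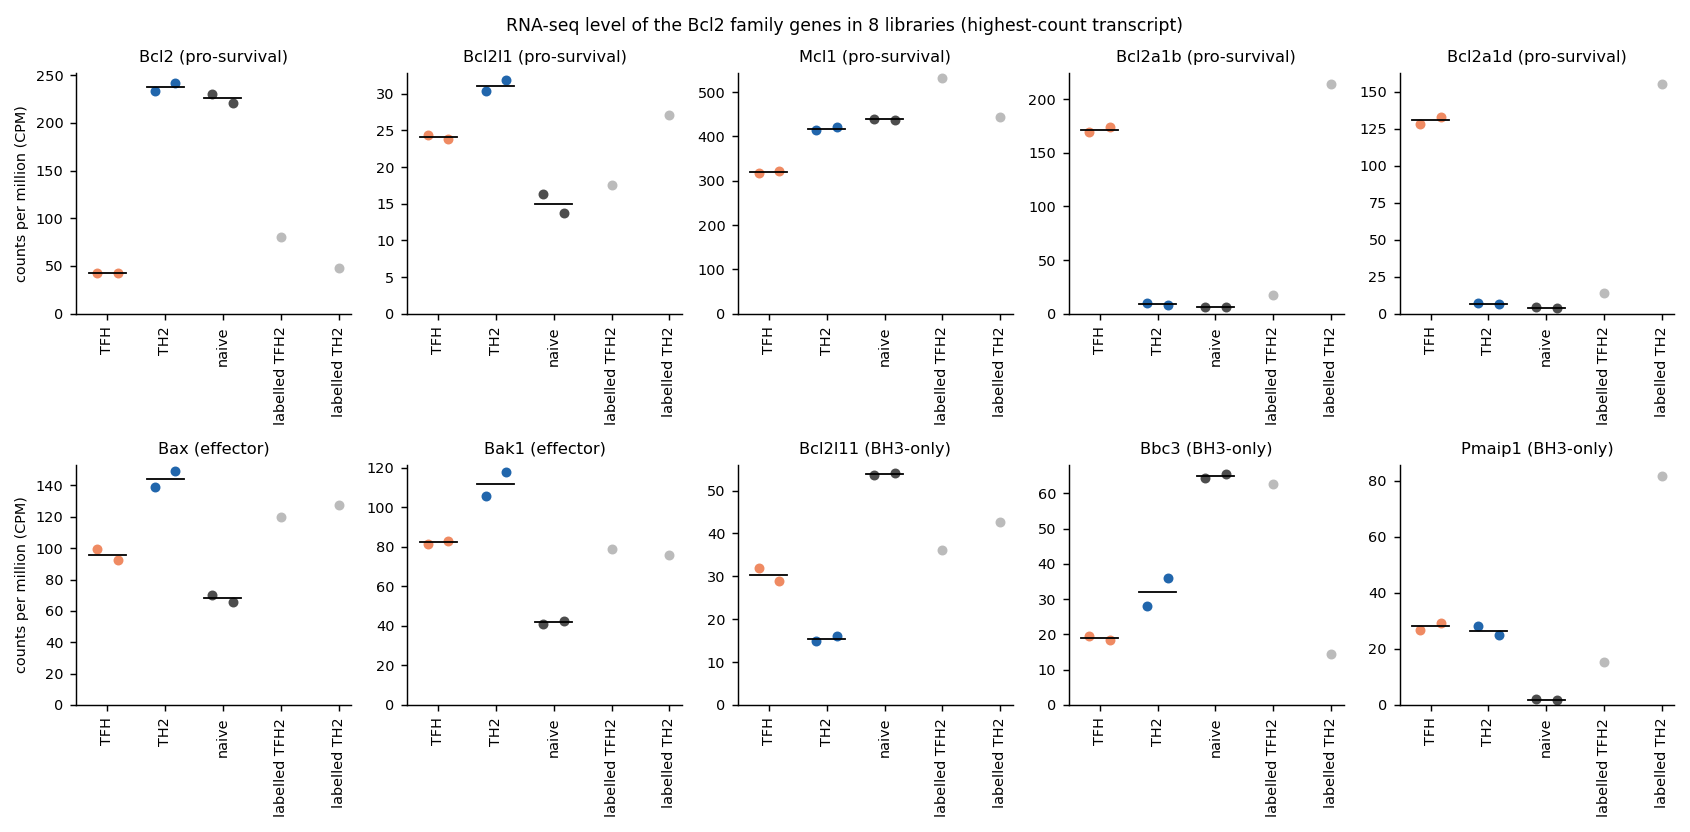
RNA-seq level in counts-per-million units, CPM (vertical axes, 1 panel a gene) of the highest-count transcript of each gene in TFH, TH2 and naive cells (n = 2 each, line at the mean) and in the 2 single libraries, shown in grey under their labels. Bcl2 lies at 42.2 and 42.9 CPM in TFH cells and at 221 to 242 CPM in TH2 and naive cells.

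The 2 single libraries are given as values only, with no replicate. In the library labelled TFH2, Bcl2a1b stood at 17.2, Bcl2a1d at 14.2, Pmaip1 at 15.3, Bbc3 at 62.7 and Bcl2 at 80.3 CPM. In the library labelled TH2 the values were 214 for Bcl2a1b, 155 for Bcl2a1d, 81.8 for Pmaip1, 14.6 for Bbc3 and 47.7 CPM for Bcl2. Past 2-fold on the scale of log2(CPM + 1), 1 member was higher and 3 were lower in the library labelled TFH2, against 6.42% and 10.3% of all genes (16.7% in either direction). The markers of these libraries go against their labels, so no direction between cell types is drawn from them.

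Genes around the family were counted from lists of other Bcl2 family members, apoptosome and caspase genes, death receptors, transcriptional regulators and survival receptors. In QuantSeq, 0 of 10 tested other members, 0 of 15 apoptosome and caspase genes and 0 of 12 death receptor genes passed in any of the 7 comparisons. Of all genes, 0.0139% to 3.51% passed in those comparisons, so 0 in lists this short is no distinctive count. Of 18 regulators, Bcl6 and Rel passed for TFH CXCR5hi over TH2, against 3.51% of all genes. Rel, the NF-kB subunit c-Rel, averaged 131 ± 50.2 CPM in TFH CXCR5hi (SD, n = 3), against 9.35 ± 7.40 CPM in TH2 libraries (SD, n = 4), and rose by 3.82 ± 0.62 (adjusted p = 9.45e-06). It rose by 2.87 ± 0.71 in TFH2 CXCR5hi (adjusted p = 0.00364). Foxo1, a FOXO factor, averaged 134 ± 52.5 CPM in TFH2 (SD, n = 6), against 277 ± 121 CPM in TFH libraries (SD, n = 8), and fell by 1.10 ± 0.25 (adjusted p = 0.00823).

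Of 14 survival receptor genes, 3 passed for TFH CXCR5hi over TH2 (1 higher, 2 lower) and 4 for TFH2 CXCR5hi over TH2 (2 higher, 2 lower), against 3.51% and 2.94% of all genes. Il4ra, the interleukin-4 receptor chain, averaged 122 ± 70.3 CPM in TFH CXCR5hi, against 1766 ± 350.1 CPM in TH2 libraries, and fell by 3.86 ± 0.42 (adjusted p = 0.000124). Il7r, the interleukin-7 receptor chain, averaged 0.202 ± 0.286 CPM in TFH2 CXCR5hi, against 477 ± 192 CPM in TH2 libraries, and passed (adjusted p = 0.0402). Il6st, a shared chain of interleukin-6 family receptors, rose by 2.58 ± 0.70 in TFH (adjusted p = 0.0302), and Cd27, a receptor of the tumour necrosis factor family, by 1.17 ± 0.29 in TFH2 (adjusted p = 0.00334). Cd27 was also higher in the CXCR5hi than in the CXCR5lo gate, by 0.89 ± 0.21 (adjusted p = 0.0211).

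In RNA-seq, TFH over TH2, 12 of 14 other family members passed (6 higher, 6 lower), as did 13 of 16 apoptosome and caspase genes (6 higher, 7 lower) and 8 of 12 death receptor genes (5 higher, 3 lower). Of 19 regulators all passed (13 higher, 6 lower), and of 14 survival receptors 13 (5 higher, 8 lower), against 61.8% of all genes. The median log2 ratios were 0.09, -0.13, 0.09, 0.73 and -0.45. Bmf, a further BH3-only gene, rose by 3.40 ± 0.15 (18.6 ± 0.698 CPM in TFH cells, against 1.72 ± 0.161 CPM in TH2 cells). Bnip3, a BH3-related gene of mitophagy, fell by 3.59 ± 0.15. Bcl2a1a rose by 4.21 ± 0.12, like the other A1 copies. Birc5, which encodes survivin and is high in dividing cells, fell by 5.94 ± 0.18, and Il7r by 5.15 ± 0.12.

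Over the 22 QuantSeq libraries, the genes whose log2(CPM + 1) followed each member most closely were found for the 8 members with a mean of at least 20 CPM. The correlations are descriptions over libraries that share their groups, so genes that part the TFH and TH2 types score high. For Bcl2 they were the ribosomal protein genes Rps9 (r = 0.929) and Rpl36a (0.904) and then Rps18 (0.890). Rps9 itself stood at 1789 to 3307 CPM in TFH and TFH2 libraries, against 3513 to 5031 CPM in TH2, Bcl6KO and Il4KO libraries. For Bcl2a1b they were Tnfsf8 (0.947), Ext1 (0.922) and P2rx7 (0.914), and for Bcl2a1d Timp2 (0.924), Il21 (0.899) and Adora2a (0.889). Pmaip1 followed Bcl2a1a (0.925), Sytl3 (0.914) and Rapgef1 (0.902). Mcl1 and Bcl2l11 had no gene above 0.793 and 0.813, and Bak1 none above 0.683. Between members, Bcl2 ran against Bcl2a1d (-0.80), Pmaip1 (-0.74) and Bcl2a1b (-0.70), and Bcl2a1b ran with Bcl2a1d (0.77).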

How the data were processed

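The authors deposited whole counts per gene for QuantSeq and whole counts per transcript for RNA-seq. Tools named in the submitters' processing notes are STAR 2.7.0c, Bowtie 0.12.2 and featureCounts 1.6.0. The sources used here do not give which tool and build made which file, nor how reads shared between Bcl2a1 copies were counted. Names came from GENCODE M21, which lacks 93 of 55573 QuantSeq identifiers, with 0.00617% of counts. In RNA-seq 82946 of 95883 transcripts were named, the others holding 14.7% of counts, and each gene was represented by its highest-count transcript. Counts-per-million values (CPM) divide by the counts of all named genes in QuantSeq and, in RNA-seq, by the counts of these highest-count transcripts, 33.1 to 35.4% of the library.

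The kits were fitted separately in edgeR 4.0.16 (R 4.3.3), using filterByExpr (minimum count 10, minimum total 15), TMM factors and a robust quasi-likelihood fit over all groups (14380 and 17013 genes, 13 and 3 residual degrees of freedom). An adjusted p under 0.05 is a call. Since no label names separate mice for the replicates, p values reflect library-to-library spread only, possibly technical. The 22 QuantSeq libraries held 1834612 to 4442404 counts and varied widely (biological coefficient of variation 1.26). The 8 RNA-seq libraries held 36048137 to 107398014 counts and hardly varied (0.0879). The alternatives were DESeq2 1.42.0, RLE factors, no filter, fits of the compared groups alone, each library left out, Bcl2a1 copies or transcripts summed and, chosen after seeing the data, TH2 libraries of 1 donor sex and RNA-seq without the single libraries. Genes named were the 10 members, at most 4 called genes per list and comparison by adjusted p, and the 3 closest patterns. Members and lists were chosen with earlier results of these data known. Proteins were not analysed here.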

Additional observations from a re-analysis of the deposited data

Results flagged for a closer look

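In groups of 4 to 10 libraries, the value farthest from the others was compared with the whole range, in 10 groups, all TH2 QuantSeq libraries; chance marks about 1 in 20 groups. Bbc3 in TH2 was marked because replicate 4 held 312 CPM and the other libraries 124 to 149 CPM (gap over range 0.867). Pmaip1 in TH2 was marked because replicate 3 held its only 4 counts (gap over range 1). With 0 counts in the other libraries, any count in replicate 3 gives a value of 1, so the stated chance rate does not apply to it.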

How the results depend on the processing

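QuantSeq replicates vary widely, so a missing call says little for members with large errors. The Bcl2 calls over TH2 held in all 13 alternatives for TFH CXCR5hi and all 12 for TFH2 CXCR5hi, with log2 ratios of -3.11 to -2.49 and -3.28 to -2.91, and the Mcl1 call for TFH in all 13 (-1.58 to -1.29). With 4 members called for TFH2 CXCR5hi over TH2, 2 were called when either TFH2 CXCR5hi library was left out, both Bcl2a1 calls being lost. For TFH2 over TFH, 1 member was called where 0 were, with the Bcl2a1 copies summed (the sum), with the compared groups alone (Bcl2a1d) and without TFH CXCR5hi replicate 1 (Bcl2l11). Without that library 1 was also called for CXCR5hi over CXCR5lo and for the interaction. Leaving out a library gave 0 to 1 called in each knockout comparison: Bcl2a1b fell without Bcl6KO replicate 2 (adjusted p = 0.007) and without Il4KO replicate 1 (adjusted p = 2.4e-07). Each rests on 1 knockout library, assumed to vary like the other groups, and the sum of the copies did not pass for either knockout (-0.24 and -0.42, adjusted p = 1). The fitted Pmaip1 ratio for Bcl6KO over TH2 was -3.29 to 7.43 when a library was left out, turning negative without Bcl6KO replicate 1. The RNA-seq member counts stayed within 1.5 times in all 30 recomputed counts. Over all genes, DESeq2 called 977, 827, 279, 222, 35, 124 and 91 genes in the 7 QuantSeq comparisons, against 505, 423, 93, 58, 2, 3 and 10. Leaving out a library gave up to 213, 140, 43, 56 and 32 in the last 5. Without the filter the last 5 gave 140, 82, 4, 17 and 38, and compared groups alone gave 1 and 0 for the knockouts. Summing transcripts moved 29 of 30 RNA-seq levels beyond the spread of replicates, since the summed counts are also the divisor: Bcl2 was 16.7 against 42.6 CPM in TFH cells. The cause of these differences was not tested. No paired analysis was possible because the labels give no replicate numbers; those used here only name libraries.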
